A study of Homo sapiens with 6 samples.

Results

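The 8 genes described here encode the ERBB receptor tyrosine kinases (EGFR, ERBB2, ERBB3 and ERBB4) and the neuregulins (NRG1, NRG2, NRG3 and NRG4). Binding of GSX2 near them was mapped by ChIP-seq, in which DNA bound by a protein is precipitated and sequenced. The cells were of the established human embryonic stem line H9, differentiated toward progenitors like those of the lateral ganglionic eminence (LGE). GSX2 is a homeodomain transcription factor of LGE progenitors. The cells carried wild-type GSX2 with a 2xFLAG tag under the doxycycline-inducible TRE3G promoter, received doxycycline at 100 ng/mL for 12 hours from day 10, and were taken at day 10.5. The precipitating antibody was M2, which recognises FLAG, so the data report on an induced transgene product, not on the endogenous protein.

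There was 1 group of 3 ChIP replicates, each with a peak list, and no contrast between conditions. All replicates, and the 2% input libraries, shared the genotype, the differentiation and the doxycycline. The inputs and cells without the transgene were not analysed here, and the depth of each library is unknown because the peak lists hold no counts of reads. The labels number the replicates without saying whether they are separate cultures, and part of their spread may therefore be technical. Marker expression was not measured, so the LGE-like label could not be checked against markers.

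Peaks were assigned to the protein-coding gene whose span, from one annotated end to the other, lay nearest to the strongest summit. Overlapping peaks of the replicates were merged into regions. Of 15743 regions in all, 41 had a member gene as the nearest. They held 20, 25 and 28 peaks of replicates 1, 2 and 3, out of 9859, 7471 and 9122 peaks in the whole lists, which is 0.203%, 0.335% and 0.307%. Replicate 1 had the most peaks overall and the fewest at these genes.

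ERBB receptors are single-pass membrane proteins that dimerise when an EGF-family ligand binds, and signal through the RAS-MAPK and PI3K-AKT pathways. ERBB2 has no known ligand of its own, and ERBB3 has a weak kinase, so both act largely in dimers with other members. Neuregulins are ligands of ERBB3 and ERBB4. In the developing basal ganglia, NRG1 made in the LGE and its surroundings guides ERBB4-bearing interneurons that migrate from the medial ganglionic eminence toward the cortex.

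Promoter sequences are shown first for those of the 6 members with a promoter entry whose annotated start lay closest to a GSX2 region. An EGFR start that holds a homeodomain core word is also shown. No genome sequence was used here, so the regions themselves are given by position only. The windows run over 250 bases before the start, 5′ to 3′ on the gene's strand, from RefSeq (GRCh38.p14). Capitals mark the word TAAT on either strand, the core bound by many homeodomain proteins.
ERBB4 promoter, chr2:212538803-212539052, minus strand: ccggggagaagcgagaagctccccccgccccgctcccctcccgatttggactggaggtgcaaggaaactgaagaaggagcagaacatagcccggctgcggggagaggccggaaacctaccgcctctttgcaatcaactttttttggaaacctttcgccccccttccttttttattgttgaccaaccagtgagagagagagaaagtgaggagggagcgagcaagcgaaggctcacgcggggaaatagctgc
NRG2 promoter, chr5:140043300-140043549, minus strand: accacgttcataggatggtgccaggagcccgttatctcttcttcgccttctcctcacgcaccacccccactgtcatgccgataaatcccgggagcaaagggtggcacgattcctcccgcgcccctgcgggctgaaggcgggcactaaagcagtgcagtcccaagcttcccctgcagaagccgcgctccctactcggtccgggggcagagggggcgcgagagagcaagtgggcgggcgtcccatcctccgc
EGFR internal promoter, chr7:55109589-55109838, plus strand: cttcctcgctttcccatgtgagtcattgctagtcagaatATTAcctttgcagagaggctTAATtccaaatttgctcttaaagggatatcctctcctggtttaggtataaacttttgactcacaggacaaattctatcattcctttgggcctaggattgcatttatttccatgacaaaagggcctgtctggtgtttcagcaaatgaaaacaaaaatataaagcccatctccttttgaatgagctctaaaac

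No GSX2 peak of any replicate overlapped a member promoter in the table, which holds 9 windows for 6 of the 8 genes, without NRG1 and ERBB3. The share of all promoter windows that overlap a peak was not counted, so this absence is not read as a trait of these genes. Over the full 300 bases of each window, from 250 before to 50 after the start, TAAT was present in 4 of 9 (2 EGFR windows, ERBB2 and NRG4), against 42.7% of 22132 windows of protein-coding genes. The longer word TAATTA, which contains TAAT on both strands, was in none of the 9, against 3.4% of all windows. Pairs of TAAT cores with 7 bases between them, in any orientation, were also in none, against 0.994% of all windows. These counts describe letters in these windows and say nothing of binding. The ERBB4 start lay 2.72 kb from the nearest region and the NRG2 start 4.82 kb from a region of replicate 1 only.

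GSX2 regions found in all 3 replicates, here called recurrent, fell at 3 of the 8 genes, ERBB4, NRG1 and EGFR. Of all 19974 protein-coding genes, 12.5% had such a region, and 33.1% had a region of any replicate, against 5 of the 8 members. Long genes had regions more often than short ones. ERBB4, NRG1 and NRG3 span 1163, 1135 and 1112 kb, and among the 314 genes spanning at least 500 kb, 68.5% had a region of all 3 replicates and 97.1% a region of any. Of the 3 long members, 2 had a recurrent region.

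ERBB4 was nearest to 17 regions, 7 of them in all 3 replicates. NRG1 had 13 and 3, and EGFR 2 and 1. NRG3 had 8 regions, NRG2 had 1, and none of these recurred in all replicates. ERBB2, ERBB3 and NRG4 were nearest to no peak of any replicate. Leaving out a replicate raises these counts by construction, since fewer replicates are required. Without replicate 1, regions common to the remaining replicates rose from 11 to 17 over the 8 genes, from 7 to 11 at ERBB4 and from 0 to 2 at NRG3. Protein-coding genes with such a region rose from 2495 to 2932. Without replicate 2, there were 13 over the 8 genes, with 8 at ERBB4 and 2 at EGFR. Without replicate 3, there were also 13, with 8 at ERBB4 and 4 at NRG1.

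**Figure D1:**
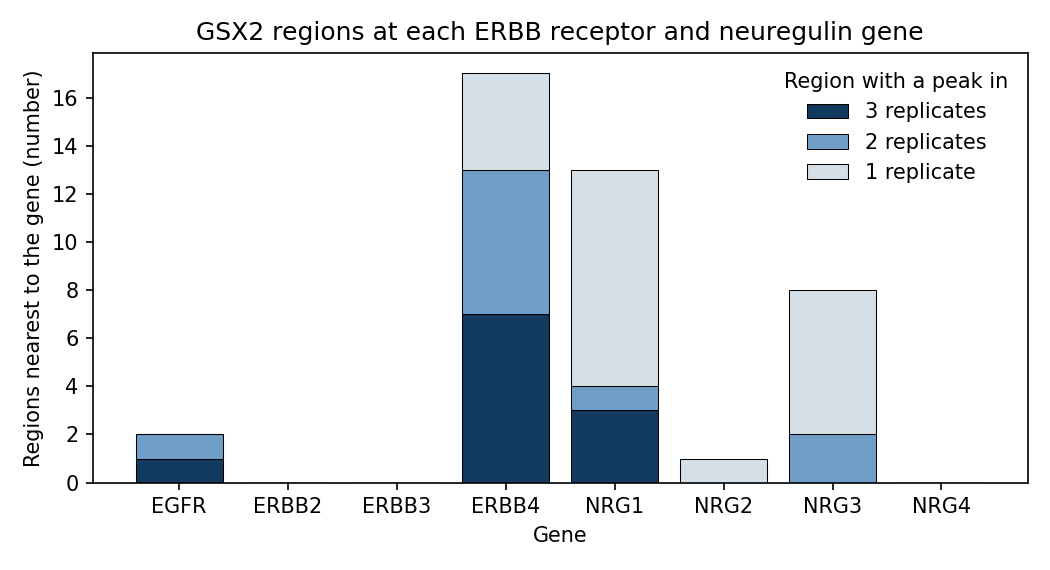
Number of GSX2 regions nearest to each of the 8 genes, stacked by whether 3, 2 or 1 of the 3 replicates had a peak in the region. ERBB4 has 17 regions and NRG1 13, with 7 and 3 in all replicates, while ERBB2, ERBB3 and NRG4 have none.

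Recurrence among the members was near that of the whole series. All 3 replicates had a peak in 11 of 41 member regions (26.8%, 95% Wilson interval 15.7 to 41.9%), against 22.5% of all regions. The interval covers counting error only. It treats the regions as independent, although 17 of the 41 were at ERBB4 and 13 at NRG1. Of the 41, 10 were in 2 replicates and 20 in 1, the latter against 54.9% of all regions. Of the 11 recurrent regions, 9 lay inside the span of their gene, against 51.3% of all recurrent regions inside a protein-coding gene. This comparison was not matched for gene length. ERBB4 and NRG1, with 7 and 3 of the 11, span 1163 of the 1742 kb and 1135 of the 1633 kb over which they are the nearest gene. The recurrent member regions ranged from weak to strong. Their median fold enrichment, the authors' linear ratio over the caller's background, was 8.20, against 9.49 over all 3537 regions of all 3 replicates. The strongest, at the start of ERBB4, was exceeded by 128 of the 3537. The weakest 4 (2 at ERBB4, 1 at NRG1 and 1 at EGFR), with means of 5.89 to 6.81, lay under the 25th percentile of 7.74 and exceeded 3.70% to 12.6% of the 3537. Member regions of 2 replicates had a median of 7.87 (7.18 in all such regions), and those of 1 replicate 5.31 (6.21).

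**Figure D2:**
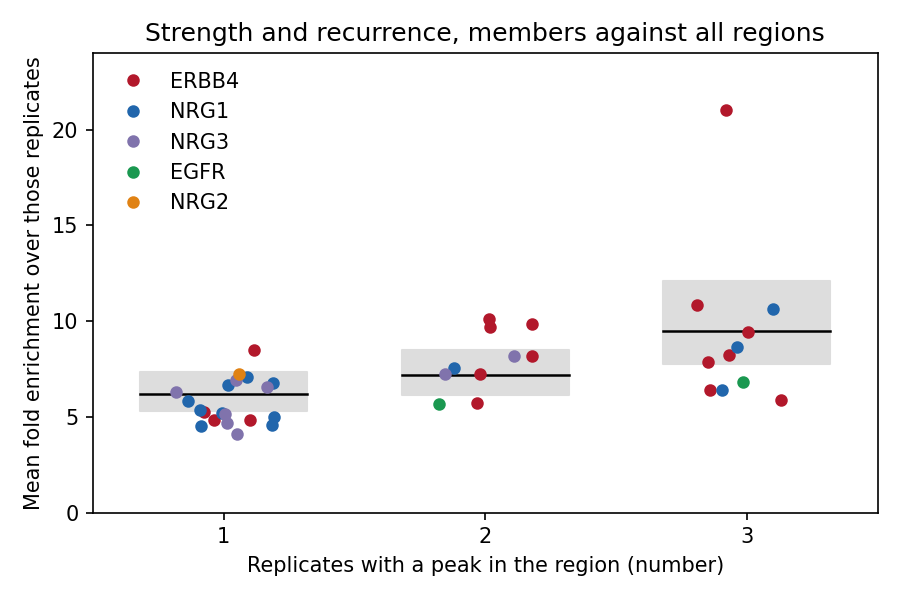
Mean fold enrichment of each of the 41 member regions (points, coloured by gene) by the number of replicates with a peak. Black lines and grey bands give the median and the middle 50% of all regions of that class. The 11 regions of all replicates spread around a median of 8.20, with 1 ERBB4 region at 21.0 far above the band.

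Among the receptors, ERBB4, the receptor of neuregulins on migrating interneurons, had the strongest region and the largest number of recurrent regions. It was also the nearest gene over 1742 kb, against 399 kb for EGFR. Per Mb of that stretch, ERBB4 had 4.02 recurrent regions and EGFR 2.50, the latter from 1 region. The strongest ERBB4 region lay inside the gene, 2.72 kb from the annotated start (chromosome 2, 212535812 to 212537124, hg38 as for all positions). Fold enrichment there was 26.9, 18.5 and 17.7 in replicates 1, 2 and 3 (21.0 ± 5.1, SD, n = 3). All values lay above every replicate value of the other 10 recurrent member regions, the highest of which was 12.6. In each replicate this peak was stronger than 96.6% or more of the list, and the 3 summits fell within 27 bp. The peak of replicate 1 was 1313 bp wide and had a second, weaker summit of 5.19-fold at a distance of 609 bp.

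Farther into ERBB4, 5 more recurrent regions were spread over the gene. The one at 537.2 kb from the start (chromosome 2, 212001414 to 212001712) had values of 10.7, 9.70 and 12.1 (10.9 ± 1.2, SD, n = 3). The one at 254.4 kb (212284225 to 212284534) had values of 7.88, 8.91 and 7.82 (8.20 ± 0.61, SD, n = 3). These 2 regions did not overlap in their values, and both had small spreads.

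The other 3 regions inside ERBB4 varied more between replicates. At 757.2 kb from the start (211781518 to 211781774) the values were 5.63, 7.36 and 4.68, the weakest mean of the recurrent member regions (5.89 ± 1.36, SD, n = 3). At 1084 kb (211454366 to 211454926) they were 8.17, 4.12 and 6.98 (6.42 ± 2.08, SD, n = 3). In replicate 2 that peak was near the bottom of the list, stronger than only 0.12% of peaks. At 1148 kb, 15.3 kb from the far end of the gene (211390921 to 211391242), they were 5.95, 10.7 and 11.7 (9.45 ± 3.07, SD, n = 3), with replicate 1 the low one. The order of these 3 regions is not resolved, since their ranges overlap.

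The last 15% of the ERBB4 span, at its 3′ end, held 5 regions, 2 of them recurrent. The stretch from 5% to 50% of the span also held 5, with 2 recurrent. Within that end, a region of replicates 2 and 3 (211455183 to 211455545, 7.32- and 9.05-fold) lay 256 bp from the region at 1084 kb. Between neighbouring ERBB4 regions the longest gap without a peak was 246204 bp. Regions thus ran along the whole gene, with a single strong one close to its start.

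Outside ERBB4, on the side of its start, there was 1 recurrent region at 147.7 kb (212686408 to 212686646) with the smallest SD among the recurrent member regions. Its values were 7.76, 8.15 and 7.64 (7.85 ± 0.27, SD, n = 3). The next protein-coding gene on that side, IKZF2, which encodes a zinc finger factor of the Ikaros family, begins 460.9 kb from ERBB4. A region of replicates 2 and 3 at 30.4 kb had 5.70- and 8.76-fold.

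Of the 6 ERBB4 regions in 2 replicates, 3 had 2-replicate means above the 3-replicate mean of the recurrent region at 1148 kb. Those at 262.3 kb (9.002- and 11.2-fold in replicates 1 and 3), at 610.1 kb (11.2- and 8.22-fold in replicates 2 and 3) and at 1131 kb (8.42- and 11.3-fold in replicates 2 and 3) were these regions. In replicates 2 and 3 alone, the recurrent region averaged 11.2, above those at 610.1 kb (9.70) and 1131 kb (9.85). In replicates 1 and 3 alone it averaged 8.83, under the region at 262.3 kb (10.1). The weakest of the 6, at 796.8 kb (6.87- and 4.61-fold in replicates 1 and 2), had a mean of 5.74, under that of every recurrent ERBB4 region. Of the 6, 4 were in replicates 2 and 3. Over the members this pattern made 6 of the 10 regions in 2 replicates, against 895 of 3568 in the whole series. Whether depth differed between replicates cannot be read from these lists, and its part in this was not tested.

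**Figure D3:**
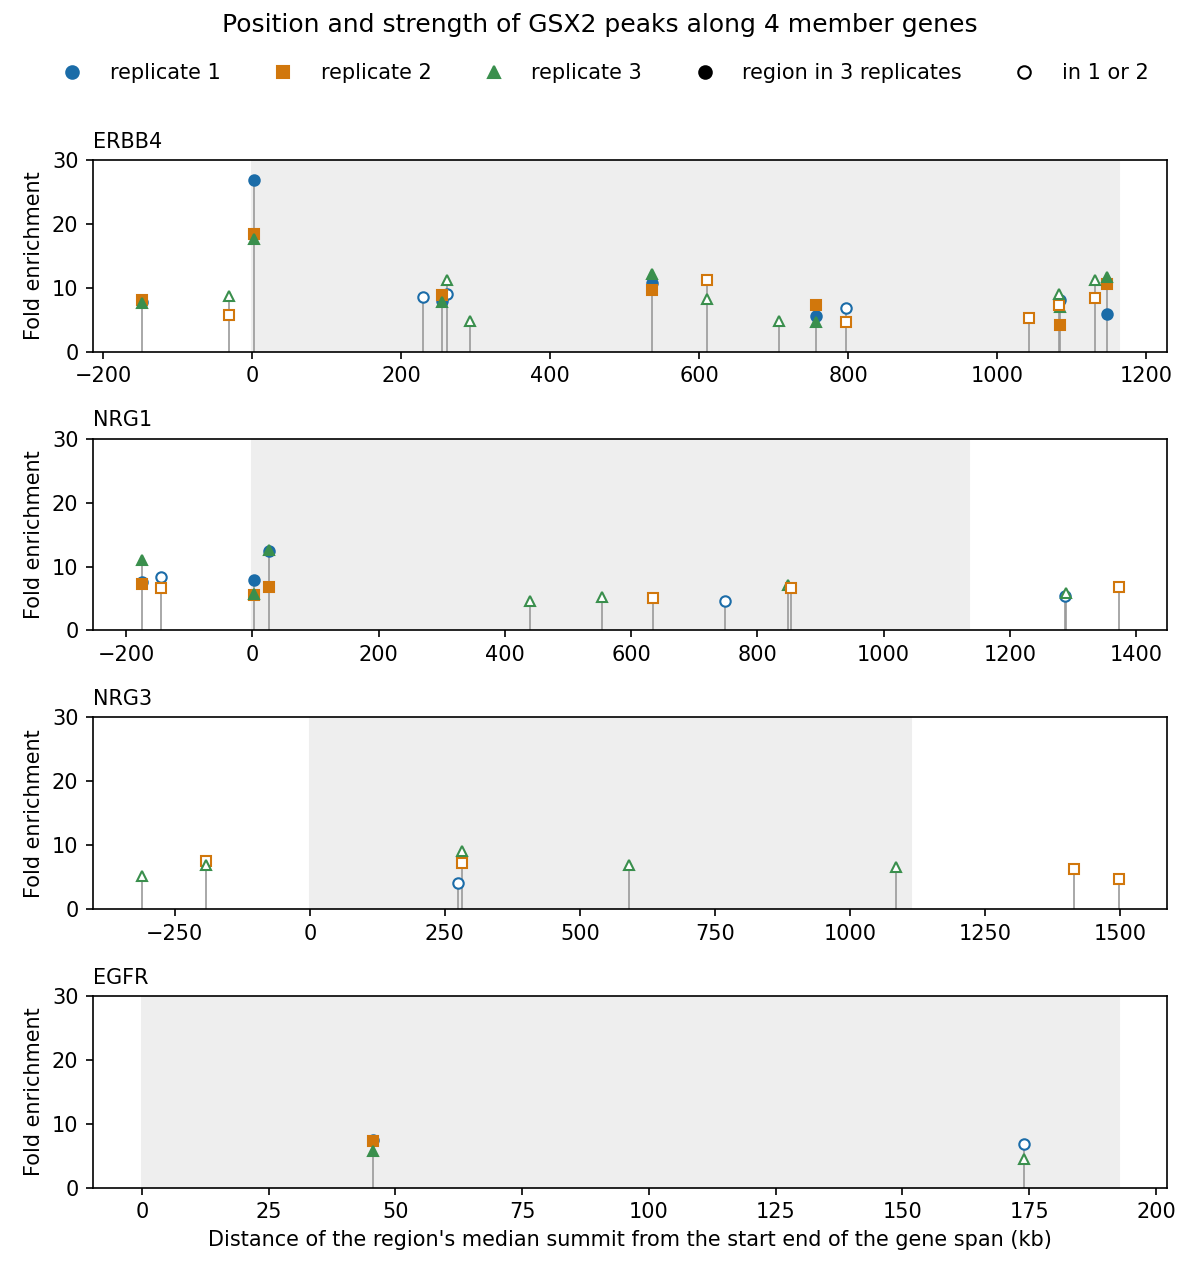
Fold enrichment of each peak (points, 1 symbol per replicate) against the distance in kb from the start end of the gene span (grey), for ERBB4, NRG1, NRG3 and EGFR. For NRG1, 0 is the lower-coordinate end. Filled symbols mark regions of all 3 replicates. ERBB4 has them along the whole span, and NRG1 at 26.7 kb or less inside that end and beyond it. Each panel has its own horizontal scale.

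EGFR, the receptor of EGF and its relatives and the best-known receptor of this family on neural progenitors, had 1 recurrent region. It lay inside the gene, 45.6 kb from the start (chromosome 7, 55064340 to 55064715), with values of 7.39, 7.36 and 5.67 (6.81 ± 0.99, SD, n = 3). In replicate 3 that peak exceeded only 19.0% of the list, and 54.4% and 45.5% in replicates 1 and 2. A second region, 173.9 kb from the start (55192662 to 55193047), was seen in replicate 1 (6.83-fold) and replicate 3 (4.49-fold). Both EGFR regions were weak next to the first ERBB4 region, whose replicates do not overlap with theirs.

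ERBB2 and ERBB3 are short genes in dense neighbourhoods, and each was the nearest gene over a stretch of only 40.6 and 41.6 kb, against 1742 kb for ERBB4. The peak closest to the ERBB2 span was 65.7 kb away, in 2 replicates, and nearer to PPP1R1B, the gene of the striatal phosphoprotein DARPP-32. The peak closest to ERBB3 was 13.2 kb away, in 1 replicate, at RPL41. The closest recurrent region to ERBB3 was 38.3 kb away, at RPS26 (6.06 ± 1.76-fold, SD, n = 3). The closest recurrent region to ERBB2 was 1339 kb away.

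Among the ligands, NRG1, whose membrane-bound and secreted forms arise from several promoters, had its recurrent regions at 1 end. NRG1 lies on chromosome 8, from 31639245 to 32774046, and positions are given from the lower-coordinate end because the promoter table has no NRG1 entry. The region 26.7 kb inside that end (31665831 to 31666155) had values of 12.5, 6.85 and 12.6 (10.6 ± 3.3, SD, n = 3), low in replicate 2. The region 2.57 kb inside (31641648 to 31642084) had values of 7.92, 5.58 and 5.67 (6.39 ± 1.32, SD, n = 3), high in replicate 1. Summits of this region spread over 177 bp, the widest among the recurrent member regions, whose median was 29 bp.

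The third recurrent region lay outside NRG1, 175.2 kb beyond the same end (31463871 to 31464153), with values of 7.56, 7.30 and 11.1 (8.64 ± 2.10, SD, n = 3). A region of replicates 1 and 2 at 144.8 kb beyond it had 8.42- and 6.67-fold. The next protein-coding gene on that side, WRN, which encodes a RecQ helicase, ends 463.1 kb from NRG1. The ranges of the 3 recurrent regions overlap, so they are not ordered.

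The rest of NRG1 had only peaks of single replicates. From the region at 26.7 kb, 412529 bp passed without a peak, and the 6 regions that followed inside the gene were each in 1 replicate, at 4.54- to 7.09-fold. Another 3 regions beyond the far end were also in 1 replicate each. ERBB4 and NRG1 are nearly equal in length, and NRG1 had 0 recurrent regions past the first 5% of its span where ERBB4 had 5. The difference was not tested, since the design has 1 group.

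**Figure D4:**
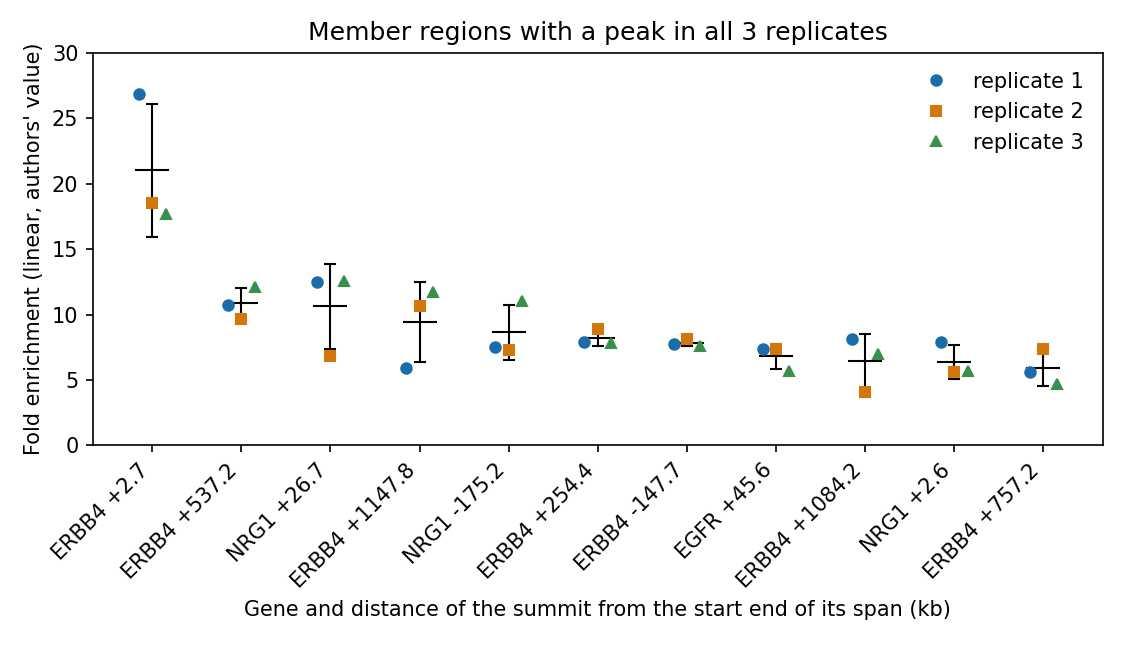
Fold enrichment in each replicate (points), with mean and SD (bars, n = 3), for the 11 member regions of all 3 replicates, labelled by gene and distance in kb from the start end (for NRG1, the lower-coordinate end). The first ERBB4 region, at 2.7 kb, stands above the others, whose values run from 4.12 to 12.6.

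NRG3, a ligand of ERBB4 made mainly in the nervous system, had 8 regions over a stretch of 2302 kb in which it was the nearest gene, and none in all replicates. The strongest lay inside the gene, 281.8 kb from the start (chromosome 10, 82156910 to 82157091), at 7.27-fold in replicate 2 and 9.12-fold in replicate 3. A second region of these replicates lay 191.6 kb before the start (81683433 to 81683666, 7.48- and 6.94-fold). The other 6 were each in 1 replicate, at 4.12- to 6.94-fold. The closest recurrent region lay 1210 kb from the gene. Among the 314 long genes, 99 likewise had no recurrent region.

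NRG2, a ligand of ERBB3 and ERBB4, had a single peak in replicate 1 (7.24-fold, chromosome 5, 140038271 to 140038640), inside the gene and 4.82 kb from its start. The closest recurrent region was 90.5 kb from the gene, nearer to PSD2 (9.18 ± 3.94-fold, SD, n = 3). NRG4, an ERBB4 ligand whose span overlaps TMEM266 and FBXO22, had no peak. The closest peak to it, in 1 replicate, was 87.7 kb away at UBE2Q2, and the closest recurrent region 891.2 kb away.

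Recurrent regions at ERBB4 were set against the 314 genes spanning at least 500 kb, which were not matched to its length. Their median was 1, with the middle 50% from 0 to 2 and a maximum of 9. Only CADPS2, a gene of vesicle release, had more than ERBB4's 7 among them (9 regions). CADPS2 spans 568 kb and was named after its value was seen. By regions of any replicate, 13 long genes had more than ERBB4. NRG1 with 3 was exceeded by 31 long genes. Over all protein-coding genes of any length, 9 had more recurrent regions than ERBB4. In peaks per replicate, ERBB4 had 10, 13 and 14 in replicates 1, 2 and 3. The genes most like it by Euclidean distance over these 3 values were MECOM, PIK3C3 and ADGRL3. MECOM had 13, 15 and 14 peaks (distance 3.61), with 22 regions, 7 of them recurrent, and a span of 580 kb. PIK3C3 had 9, 11 and 11 (distance 3.74), with 20 regions, 4 of them recurrent, and a span of only 133 kb. ADGRL3 had 14, 13 and 14 (distance 4), with 25 regions, 6 of them recurrent, and a span of 878 kb.

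Other genes of the pathway, in a list of 36, had a recurrent region in 12 cases and a region of any replicate in 19, against 12.5% and 33.1% of all protein-coding genes. None of the 7 other EGF-family ligands (EGF, TGFA, HBEGF, AREG, EREG, EPGN and BTC) and none of the 3 proteases that process ligands or receptors (ADAM10, ADAM17 and BACE1) had a recurrent region. EPGN and BTC were nearest to 1 region each, in fewer than 3 replicates. The recurrent regions lay at 6 of 16 adaptors and effectors, at 5 of 9 genes that set receptor levels, and at NRDC, whose protease binds HB-EGF.

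Of the genes that set receptor levels, the LRIG genes, whose products are membrane proteins and in the case of LRIG1 promote loss of ERBB receptors, each had a recurrent region. LRIG1 had 5 recurrent regions of 9, the strongest inside the gene (chromosome 3, 66491099 to 66491463) at 11.8, 15.3 and 8.44 (11.8 ± 3.4, SD, n = 3). LRIG3 had 2 recurrent regions of 6, the strongest 229.7 kb away at 9.69, 14.6 and 11.0 (11.8 ± 2.6, SD, n = 3). For both genes replicate 2 was the highest.

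NEDD4, a ubiquitin ligase gene, held a region inside it (chromosome 15, 55991051 to 55991359) with nearly equal values of 10.7, 10.5 and 10.5 (10.5 ± 0.12, SD, n = 3). WWOX, whose product binds the cleaved intracellular part of ERBB4, spans 1113 kb and had 13 regions, of which 1 was recurrent (7.64 ± 2.05-fold, SD, n = 3). WWOX is close in length to ERBB4 and had 1 recurrent region against 7.

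Of the effectors, YAP1, a coactivator that also binds the intracellular part of ERBB4, held the strongest region (chromosome 11, 102111565 to 102112385, 12.0, 17.9 and 7.90, mean 12.6 ± 5.0, SD, n = 3), with a wide spread. PIK3R1, the regulatory subunit of PI3K, had 3 recurrent regions, the strongest 160.8 kb away (10.4, 11.6 and 12.4, mean 11.5 ± 1.0, SD, n = 3). NCOR1 and TAB2, which encode partners of the ERBB4 fragment in repression, held regions of 11.1 ± 1.6-fold and 8.63 ± 2.34-fold (SD, n = 3), both inside the gene. None of these reached the first ERBB4 region's mean, and only YAP1 in replicate 2, at 17.9, came above its lowest replicate.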

How the data were processed

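Per the submitters' processing notes, Trim Galore, Bowtie2, SAMtools, MACS3 and deepTools were used, with build hg38. The sources used here do not give tool versions, settings or the control library. Each replicate has its own deposited narrow-peak list, not a pooled one. In the deposited lists, the authors' fold enrichment is a linear ratio, significance is −log10 p and −log10 q (smallest 3.0), and the deposited score, −log10 q times 10, was not used.

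Lines of 1 interval were reduced to the summit of highest fold enrichment. Intervals on chromosomes 1 to 22 and X were kept; 77, 64 and 82 others were left out. Each went to the nearest RefSeq protein-coding span (GRCh38.p14), ties counting for each gene, and intervals overlapping by at least 1 bp were merged. Recurrent means in all 3 replicates. The span table gives no strand or exons, so introns and exons were not separated, and strand came from the promoter table. With 1 group there was no test, and motifs in regions were not searched. Merging and assignment were tested on simulated data (Python 3.11.15, pandas 2.3.3). All members are named. Recurrent member regions, each member's strongest other region, and up to 8 pathway genes by fold enrichment were named by rule. One gene of the planned pathway list is not reported here. Members and lists were chosen with earlier results of these data known. Peaks called per replicate without depth limit what a missing peak can show.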

Additional observations from a re-analysis of the deposited data

How the results depend on the processing

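ERBB4 kept at least 1 region of all replicates used under every alternative run, and NRG1 and EGFR did under all but the strictest threshold. When peaks needed a −log10 q of 10 or more, there were 18 member regions, 3 of them recurrent, all 3 at ERBB4, so 1 member and 6 pathway genes had a recurrent region. Counting regions of at least 2 replicates as recurrent gave 21, with 13 at ERBB4 and 2 at NRG3. Leaving out 1 replicate at a time gave 32 to 36 member regions, 13 to 17 common to the remaining replicates, 3 to 4 members and 13 pathway genes. The fewer replicates required set the higher counts by construction. The other alternatives (−log10 q of at least 5, closer gene end, genes of any type, summits within 100 kb, shortest span, 50% overlap, summits within 100 bp) gave 9 to 11 recurrent member regions at the same 3 genes, against 11. Under 50% overlap ERBB4 had 6 recurrent regions against 7, and the one lost was its strongest, near the start. The replicate 1 peak there was 1313 bp wide, against 327 and 397 bp in replicates 2 and 3. Taking the mean over summits in place of the strongest summit could change fold enrichment in only 2 of the 11 recurrent regions, both at ERBB4, and moved each by less than 1 SD. No paired analysis was possible because there is 1 group with files and no contrast. Depth is unknown, so a peak missing in 1 replicate is not shown to be absent there.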
